A study of Homo sapiens with 6 samples.

Results

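The genes described here encode the transport machinery and the gate of the primary cilium: intraflagellar transport (IFT) proteins, the BBSome, its assembly factors and partner GTPases, transition zone proteins and the distal centriole protein OFD1. They were chosen by symbol from a list of 38 genes, out of 61552 genes in the deposited count table. All 38 were found, and all 38 passed the filter on low counts. Poly(A) RNA was measured in the ovarian carcinoma cell line SKOV3, which carries amplified ERBB2, after 48 h with the solvent DMSO or with fenbendazole at 1 µM. Fenbendazole, a benzimidazole used to treat worm infections, binds tubulin. Each group held 3 libraries, named DMSO 10, 11 and 12 and fenbendazole 7, 8 and 9 after their titles. No genetic change separated the groups. Whether the libraries of a group came from separate cultures is not given in the sources used here. If they did not, the p-values below describe technical spread alone.

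The primary cilium is a single microtubule-based antenna that grows from the mother centriole of a resting cell and is taken down before mitosis. Kinesin-2 carries IFT-B trains to the tip, dynein-2 and IFT-A bring them back, and the BBSome rides on these trains and takes membrane receptors out of the cilium. The transition zone at the base, built from the MKS and NPHP modules, limits which proteins enter, and Hedgehog signalling runs through the cilium. Ovarian carcinoma cells in culture are known to carry few cilia, so the RNA of these genes says nothing by itself about cilium number. In bulk RNA, fewer cells with a given transcript and less of it per cell cannot be told apart.

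Many cilium genes are controlled by RFX factors, which bind a paired site named the X-box, and its core GTTGCC was searched on both strands of RefSeq promoter windows (GRCh38.p14, 250 bases before to 50 bases after a start). A window was found for 34 of 38 members. The core was in the windows of 17 of these 34 members (50%), against 14.6% of 27305 genes and 16.9% of 11702 tested genes with a window. The whole X-box was searched in 1 fixed form of 14 bases, with a set spacing and a set pattern for the second part. That form was in the window of ARL6 alone among the members, against 0.432% of all genes and 0.547% of tested genes. Pairs with another spacing or a varied second part were not counted. In the TCTN3 window, for example, the core stood 215 bases before the start on 1 strand and 208 bases before it on the other. The 6 stretches below show the core, in capitals, in members from 4 of the groups described further on. Each is written 5′ to 3′ on the gene's own strand, and a match is a description of the letters, not a measured binding site.
TCTN3, chr10:95694117-95694162, minus strand: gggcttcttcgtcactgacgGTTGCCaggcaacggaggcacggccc
MKS1, chr17:58219264-58219309, minus strand: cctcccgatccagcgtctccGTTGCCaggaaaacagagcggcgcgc
TMEM231, chr16:75556267-75556312, minus strand: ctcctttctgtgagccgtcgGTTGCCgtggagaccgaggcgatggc
BBS5, chr2:169479460-169479493, plus strand: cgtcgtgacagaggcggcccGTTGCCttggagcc
ARL6, chr3:97764714-97764757, plus strand, part of the X-box: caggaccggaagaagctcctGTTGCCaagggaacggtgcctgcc
OFD1, chrX:13734655-13734700, plus strand, core on the other strand: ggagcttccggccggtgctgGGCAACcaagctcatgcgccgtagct

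Motifs of cell cycle gene promoters were searched in the same windows. The E2F sites TTTCCCGC and TTTGGCGC were in 0 of the 34 members' windows, against 1.98% and 0.795% of all genes. The CHR element TTTGAA was in 2 windows (5.88%, against 18.2%), those of IFT80 and TTC8. CCAAT was in 17 (50%, against 39.7%), and the NRF1 site in 0 (against 1.52%). GTTGCC and CCAAT are short, so a match is common among all genes too.

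Library totals ran from 13170775 (DMSO 12) to 22128930 counts (DMSO 11), so that 3 counts amounted to 0.136 to 0.228 CPM, the unit of level below, in which counts are divided by TMM-scaled library size. DMSO 11 stood apart, with a mean correlation of 0.935 with the other libraries against 0.959 to 0.966 for the rest. Members are therefore described with and without it. Of 10 markers of this line and of Müllerian epithelium, ERBB2, KRT8 and PAX8 were abundant, MUC16 was at 1.94 to 3.20 CPM and WT1 at 0.219 to 1.27 CPM, and EMX2 did not pass the filter. ERBB2 was lower with fenbendazole by the edgeR test described below (log2 fold change -1.29, adjusted p = 0.0422). DMSO 11 was its highest library, at 15880 CPM against 8585 and 7806 CPM in DMSO 10 and 12. Without DMSO 11 the same test gave -0.89 (adjusted p = 1.24e-07). ERBB2 was not called without DMSO 10, without fenbendazole 7, 8 or 9, or with limma on log2 FPKM. FOXJ1, which drives motile cilia, had at most 1 count in a library, and the axonemal dynein gene DNAI2 had 0 counts in all 6. Of 16 multiciliated cell markers 9 passed the filter, with CAPS (13.2 to 56.8 CPM) and CCDC40 (11.8 to 22.2 CPM) highest. CAPS did not pass the test below with all 6 libraries (log2 fold change -1.325, adjusted p = 0.0974). Without DMSO 11 it was lower with fenbendazole (-0.74, adjusted p = 0.00133). The 16 markers summed to 59.7 to 97.9 CPM in DMSO and 44.5 to 47.3 CPM with fenbendazole, with DMSO 11 highest. CAPS and CCDC40 made up most of each sum. Of the 9 tested markers, 5 had positive and 4 negative fold changes with all 6 libraries (median 0.05). Without DMSO 11, 3 of these markers were positive and 6 negative (median -0.10). Their part in the results was not tested. The 10 leukocyte markers summed to 12.7 to 19.0 CPM over all libraries. Most of that sum was CD68 (11.45 to 17.95 CPM), the 1 leukocyte marker that passed the filter, while CD3E, CD3D and MS4A1 were at 0.

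Every member was expressed, with 39 to 2226 counts per library. Per length, as deposited FPKM averaged over the 6 libraries, levels ran from 0.861 for IFT27, a small GTPase of IFT-B, to 37.2 for IFT52, a core subunit of the same complex, with a median of 8.30. After IFT52 came IFT57 (22.5), TCTN3 (21.2), OFD1 (21.1), TCTN1 (21.0) and IFT80 (20.2), whose ranges over the 6 libraries overlapped, while all IFT52 values lay above them. At the low end came CC2D2A (1.16), BBS12 (1.68) and BBS9 (1.83), with ranges that overlapped that of IFT27. Subunits of one complex thus differed widely in RNA level. Summed over the 38 members, the level was 1367, 1177 and 1471 CPM in DMSO 10, 11 and 12 and 1312, 1238 and 1316 CPM with fenbendazole, so the groups overlapped.

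With fenbendazole, 0 of the 38 members were higher and 0 lower by edgeR's quasi-likelihood test at a Benjamini-Hochberg adjusted p of 0.05 over 17363 genes, where 3.11% of all genes were higher and 0.921% lower. Under upper-quartile scaling the 540 higher and 160 lower genes became 455 and 231, and members still gave 0 calls. The fold changes (log2, fenbendazole over DMSO) ran from -0.75 for IFT140 to 0.59 for ARL6, with a median of -0.09 against -0.06 over all genes. They were positive for 16 members and negative for 22, and for 12 and 26 under upper-quartile scaling. The 95% interval lay within a 2-fold change either way for 26 members, and over all members the bounds reached -1.24 and 1.38. At an unadjusted p of 0.05, 6 members were lower and 0 higher: IFT172, IFT43, IFT140, BBS1, TCTN1 and TCTN3. Over all 17363 genes, 1829 were lower and 1870 higher at that level. The members' count was 11 lower and 0 higher under upper-quartile scaling, where 2458 genes were lower and 1446 higher, and 6 lower and 5 higher without DMSO 12, where 2292 and 2233 of 18075 genes were. The 6 named genes were also the ones that DESeq2 put past an adjusted p of 0.05 (6 lower, 0 higher, beside 4.66% and 6.66% of all genes), while limma-voom called 0.

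**Figure D1:**
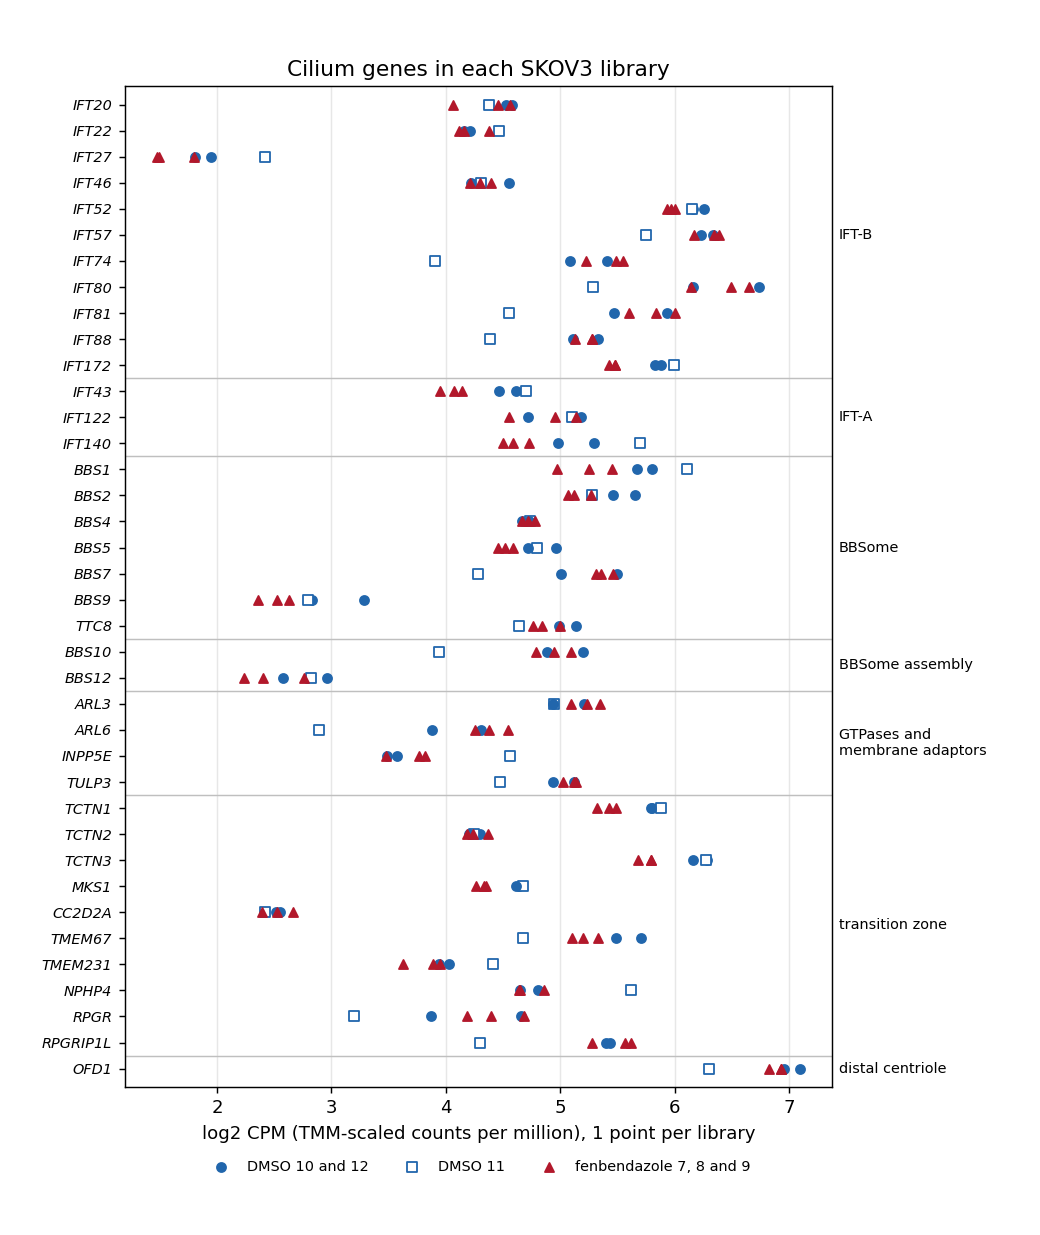
Level of each of the 38 genes in each library, as log2 TMM-scaled CPM on the x axis, grouped by complex. Filled circles are DMSO 10 and 12, open squares DMSO 11 and triangles fenbendazole 7, 8 and 9; the triangles lie to the left of all DMSO points for 12 genes, and DMSO 11 is the lowest point of 14 genes and the highest of 11.

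In 12 members (31.6%) all 3 fenbendazole libraries lay below all 3 DMSO libraries, and in 0 members above them. Over all tested genes these shares were 15.5% and 17%. The 12 were IFT27, IFT52, IFT172, IFT43, IFT140, BBS1, BBS2, BBS5, BBS9, TCTN1, TCTN3 and MKS1. Without DMSO 11 the count was 14 lower and 0 higher, beside 24.8% and 24.6% of all genes.

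Leaving out DMSO 11 changed the calls. In that fit 8 of 38 members (21.1%) were lower and 0 higher, where 9.23% of 17689 genes were lower and 13.1% higher. The fit drops the control that deviated most, so its p-values may understate the spread between controls. The 8 were IFT172 of IFT-B, IFT43 and IFT140 of IFT-A, BBS1 and BBS2 of the BBSome, and TCTN1, TCTN3 and TMEM67 of the transition zone. Their differences were modest, from -0.37 for TCTN1 to -0.53 for IFT140 on the log2 scale. The median standard error (SE) of a member's log2 fold change was 0.203 with all 6 libraries and 0.130 without DMSO 11, and 33 members kept the sign of their fold change. Intervals then lay within a 2-fold change either way for 37 members. With any other single library left out, 0 members were called.

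**Figure D2:**
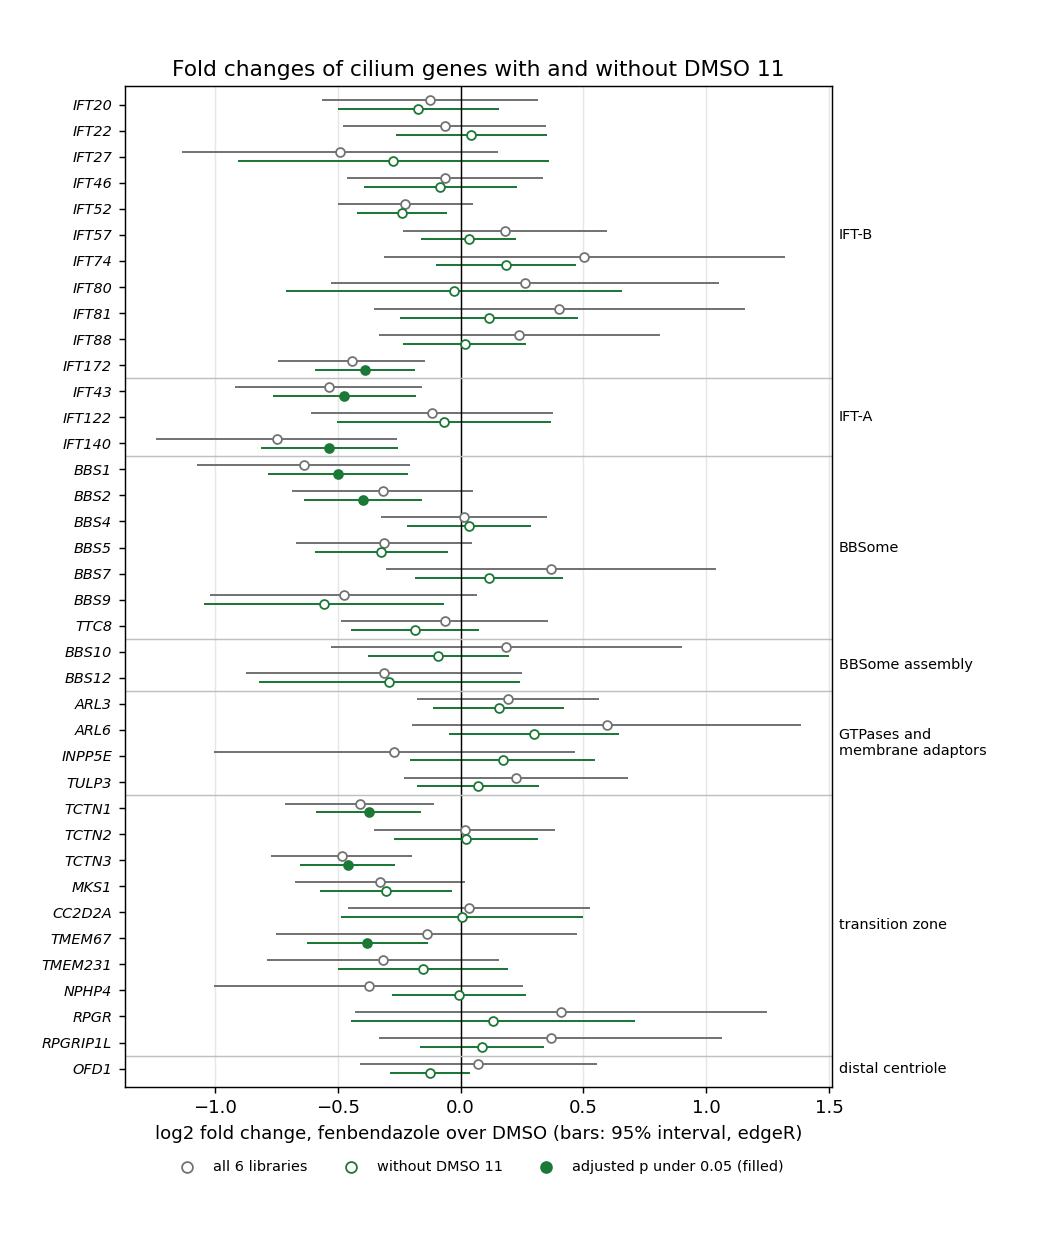
Log2 fold change of each gene, fenbendazole over DMSO, on the x axis with its 95% interval from edgeR, for all 6 libraries (grey) and without DMSO 11 (green). Filled points mark an adjusted p under 0.05: 0 genes with all 6 libraries and 8 genes, all lower, without DMSO 11.

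The IFT-A complex, which drives return transport and carries membrane cargo into the cilium, had the lowest median of the complexes with more than 1 member here, -0.54 over 3 genes. IFT140, a core scaffold of IFT-A (chr16:1510427-1612072), had 39.3, 52.0 and 31.6 CPM in DMSO 10, 11 and 12 and 26.5, 24.1 and 22.6 CPM in fenbendazole 7, 8 and 9. The groups did not overlap, and DMSO 11 was the highest library. Its log2 fold change was -0.75 ± 0.209 (SE; adjusted p = 0.1), and -0.53 ± 0.128 without DMSO 11 (adjusted p = 0.0086). IFT43, a small IFT-A subunit on chr14:75902136-76084585, held 24.4, 25.98 and 22.0 CPM in DMSO and 15.5, 17.7 and 16.8 CPM with fenbendazole, again without overlap. The change was -0.54 ± 0.162 (adjusted p = 0.119), and -0.47 ± 0.134 without DMSO 11 (adjusted p = 0.0213). IFT122, also of IFT-A, showed no such separation: its libraries overlapped and its fold change was -0.12 ± 0.210.

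The span of IFT43 holds TGFB3 on the opposite strand, and whether the counting used strand is not given in the sources used here. TGFB3, a growth factor gene at a mean of 10.99 CPM, was lower with fenbendazole (log2 fold change -1.96, adjusted p = 0.00401). IFT43 also shares 52944 bases with TTLL5 on its own strand, at 48.7 CPM and a fold change of 0.37 (adjusted p = 0.189). Reads of these genes may have been divided between them, and the count of IFT43 is uncertain for that reason. Over all members, 14 overlap another gene with a mean of at least 1 CPM. IFT140 shares 31 bases with TELO2, BBS1 shares 12977 with ZDHHC24 (-0.75, adjusted p = 0.191), and BBS2 shares 13465 with OGFOD1 (0.09, adjusted p = 0.696). BBS1 also shares 23008 bases on its own strand with a protein-coding gene without a symbol, at 2.04 CPM. IFT172 shares 2105 bases with KRTCAP3 on the opposite strand (1.25 CPM, -0.71, adjusted p = 0.427). TCTN1, TCTN3 and TMEM67 are not among the 14.

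IFT-B, which builds outbound trains, was represented by 11 genes with a median of -0.06, 5 positive and 6 negative. IFT172, a peripheral IFT-B subunit (chr2:27444377-27489805), had 59.0, 63.7 and 56.8 CPM in DMSO and 44.5, 44.5 and 43.0 CPM with fenbendazole. The 3 fenbendazole libraries lay close together and below every control. Its fold change was -0.44 ± 0.127 (adjusted p = 0.104), and -0.39 ± 0.093 without DMSO 11 (adjusted p = 0.00829). IFT52 and IFT27 also had groups that did not overlap, with fold changes of -0.22 ± 0.117 and -0.49 ± 0.276 that did not pass the test. IFT27 had few counts, at 2.78 to 5.35 CPM.

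The other 8 IFT-B genes had overlapping groups. For IFT20, IFT22 and IFT46 the fold changes lay between -0.12 and -0.06. IFT74, IFT81, IFT88, IFT57 and IFT80 had positive values, from 0.18 to 0.50, and in each of them DMSO 11 was the lowest of the 6 libraries. IFT74, which pairs with IFT81 to bind tubulin cargo, had 34.0, 15.0 and 42.4 CPM in DMSO and 44.9, 37.4 and 46.9 CPM with fenbendazole. Without DMSO 11 the fold change of IFT74 went from 0.50 ± 0.349 to 0.19 ± 0.130, and that of IFT80 from 0.26 to -0.03. IFT80 shares 142895 bases on its own strand with a protein-coding gene without a symbol (5.71 CPM, fold change 2.21, adjusted p = 0.242). It also shares 607 bases with SMC4 on the opposite strand, a condensin gene that was higher with fenbendazole (2.19, adjusted p = 0.017). IFT20 shares 361 bases with TMEM97, also on the opposite strand and higher (1.02, adjusted p = 0.0438).

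The BBSome, an adaptor that coats receptors for export, was represented by 7 genes with a median of -0.31. BBS1, the subunit that binds the GTPase ARL6 (chr11:66510606-66533613), had 51.0, 69.0 and 55.9 CPM in DMSO and 38, 43.7 and 31.4 CPM with fenbendazole. The groups did not overlap, and the control spread was wide because DMSO 11 was high. The fold change was -0.64 ± 0.185 (adjusted p = 0.108), and -0.50 ± 0.130 without DMSO 11 (adjusted p = 0.0148). BBS1 was also the 1 member past the threshold when limma was run on log2(FPKM + 1) over 14693 genes, of which 1.19% were lower and 3.23% higher (-0.59, adjusted p = 0.0473). With a pseudocount of 0.1 it was again the 1 call (1.14% of genes lower and 3.04% higher). BBS2, which joins BBS7 and BBS9 in the core of the complex, had 50.2, 38.9 and 44.1 CPM in DMSO and 34.8, 33.5 and 38.5 CPM with fenbendazole. DMSO 11 was its lowest control and stood just above fenbendazole 9. Its fold change of -0.32 ± 0.156 (adjusted p = 0.283) became -0.40 ± 0.110 without DMSO 11 (adjusted p = 0.0189).

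BBS5 and BBS9 had groups that did not overlap but did not pass the test, at -0.31 ± 0.153 and -0.48 ± 0.232. BBS4 lay at 0.01 ± 0.143, with all 6 libraries between 25.4 and 27.5 CPM. BBS7 (0.37) and TTC8, also known as BBS8 (-0.07), had overlapping groups. Of the chaperonin-like assembly factors, BBS12 had 5.96, 7.07 and 7.81 CPM in DMSO and 5.30, 6.78 and 4.71 CPM with fenbendazole. Its groups overlapped, with a fold change of -0.31 ± 0.240 (adjusted p = 0.481), and BBS10 had 0.19 ± 0.305.

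The 4 genes of GTPases and membrane adaptors had a median of 0.21, and of 0.16 without DMSO 11. ARL6, which recruits the BBSome to membranes (chr3:97764521-97801229), had 14.7, 7.42 and 19.9 CPM in DMSO and 20.8, 19.1 and 23.3 CPM with fenbendazole. The groups overlapped, since DMSO 12 lay above fenbendazole 8, and DMSO 11 was far below the rest. Its fold change was 0.59 ± 0.337 (adjusted p = 0.346), and 0.30 ± 0.159 without DMSO 11 (adjusted p = 0.211). ARL3, which releases lipidated cargo inside the cilium, was at 0.19 ± 0.157, and TULP3, which brings receptors in with IFT-A, at 0.23 ± 0.194. TULP3 shares 12302 bases on its own strand with RHNO1 (25.15 CPM, fold change 0.62, adjusted p = 0.0919). The count of TULP3 is therefore uncertain. INPP5E, the phosphoinositide phosphatase of the ciliary membrane, had 11.9, 23.6 and 11.2 CPM in DMSO and 14.1, 11.1 and 13.6 CPM with fenbendazole. Its value of -0.27 ± 0.314 became 0.17 ± 0.173 without DMSO 11, where all 4 genes were positive and 0 of 4 passed the test.

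The transition zone was represented by 10 genes with a median of -0.23, and by a median of -0.08 without DMSO 11. TCTN3, a tectonic protein of the MKS module (chr10:95659823-95694143), had 78.0, 77.3 and 71.3 CPM in DMSO and 55.4, 55.4 and 51.3 CPM with fenbendazole. All 3 controls lay above all 3 treated libraries by more than the spread within either group. With all 6 libraries its fold change was -0.48 ± 0.122, the smallest adjusted p of any member (0.0762), and -0.46 ± 0.088 without DMSO 11 (adjusted p = 0.00205). Its relative TCTN1 (chr12:110614027-110663431) had 55.7, 59.1 and 55.3 CPM in DMSO and 44.9, 43.1 and 40.0 CPM with fenbendazole. The change was -0.41 ± 0.129 (adjusted p = 0.129), and -0.37 ± 0.098 without DMSO 11 (adjusted p = 0.014). TCTN2, the remaining tectonic, stayed at 18.2 to 20.7 CPM in all 6 libraries, with a fold change of 0.02 ± 0.157.

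TMEM67, also called meckelin, a membrane protein of the MKS module, had 44.9, 25.5 and 52.3 CPM in DMSO and 36.8, 34.3 and 40.2 CPM with fenbendazole. DMSO 11 lay below every treated library while the other 2 controls lay above them. Its fold change was -0.14 ± 0.261 (adjusted p = 0.788) with all libraries and -0.38 ± 0.113 without DMSO 11 (adjusted p = 0.0274). With all 6 libraries it was called under GC and length offsets (-0.40, adjusted p = 0.0166), and DESeq2 did not call it. MKS1 had groups that did not overlap and did not pass the test (-0.33 ± 0.147). TMEM231 (-0.32 ± 0.202), CC2D2A (0.03 ± 0.210), NPHP4 (-0.37 ± 0.268), RPGR (0.41 ± 0.358) and RPGRIP1L (0.37 ± 0.298) had overlapping groups. OFD1, which acts at the distal end of the centriole, had 124.0, 79.0 and 136.6 CPM in DMSO and 121.5, 113.4 and 122.0 CPM with fenbendazole, and a fold change of 0.07 ± 0.205 (adjusted p = 0.862).

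The deviation of DMSO 11 followed the GC content of the transcripts. In the 38 members, the Spearman correlation between GC content and the log2 difference of DMSO 11 from DMSO 10 and 12 was 0.873, and it was 0.792 over 16975 tested genes, which are not independent and share these libraries. INPP5E, with 61.4% GC, was 1.03 higher in DMSO 11, while ARL6, with 34.9% GC, was -1.20 and IFT74, with 41.2% GC, -1.34. When tested genes were split evenly into low, middle and high GC content, 17 members fell in the low class and 1 of them was higher in DMSO 11 than in the mean of the other controls. Of the 8 members in the high class 7 were. The Spearman correlation between GC content and the log2 fold change was -0.68 in members and -0.45 in all tested genes, and -0.32 and -0.03 without DMSO 11. With offsets for GC content and length, 10 members were lower and 0 higher, where 9.46% of genes were lower and 11.9% higher: the 8 named above with IFT52 and BBS9. Such offsets also remove group differences that go along with GC content. Settings added after seeing the data gave 8 lower members with library quality weights in limma-voom, where 12.4% of genes were lower and 14% higher, and 11 with the offsets and DMSO 11 left out, where 11.2% were lower and 14.3% higher.

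**Figure D3:**
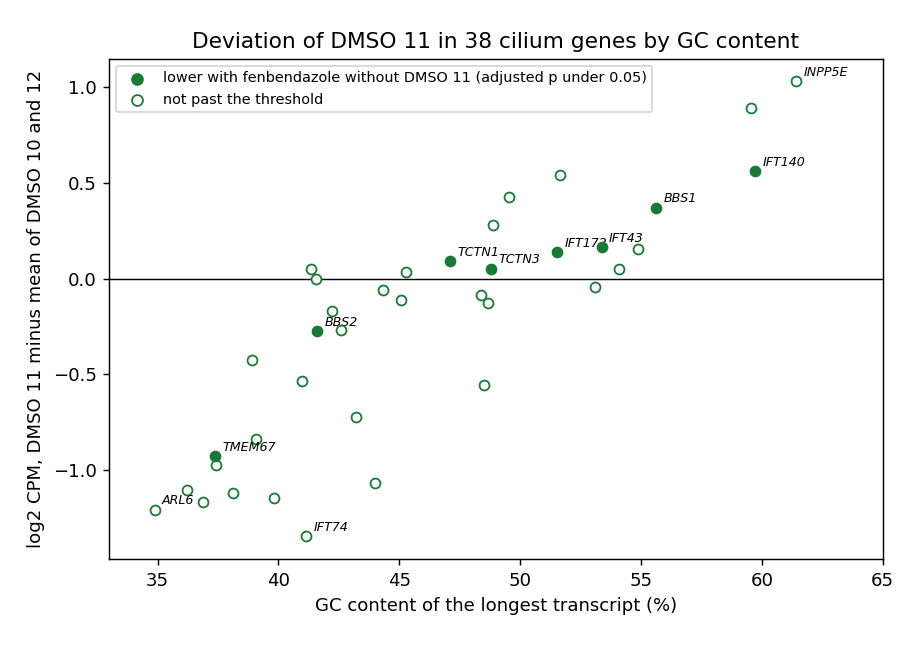
GC content (%) of the longest transcript on the x axis and log2 CPM of DMSO 11 minus the mean of DMSO 10 and 12 on the y axis, 1 point per gene. Points rise from ARL6 at 34.9% GC and -1.20 to INPP5E at 61.4% GC and 1.03; filled points are the 8 genes lower with fenbendazole without DMSO 11.

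The RFX core was found on both sides of these results. Of the 17 members whose windows hold GTTGCC, 3 were among the 8 lower without DMSO 11 (BBS1, TCTN1 and TCTN3), and the median fold change in that fit was -0.12. Of the 17 members with a window without it, 4 were lower (IFT172, IFT43, IFT140 and BBS2) and the median was -0.01. With all 6 libraries the medians were in the other order, -0.07 with the core and -0.12 without. The eighth gene, TMEM67, had no window. No test was made of this split.

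Other genes of the cilium were taken from 8 lists by textbook role, 116 genes in all, of which 102 passed the filter. With all 6 libraries 9 rose and 0 fell by edgeR, beside 3.11% and 0.921% of all genes. At an unadjusted p of 0.05, 18 were higher and 14 lower, beside 1870 and 1829 of all 17363 genes. Of the 9, 7 came from 15 tested genes of cilium capping and disassembly. Without DMSO 11, 20 were higher and 18 lower, beside 13.1% and 9.23% of all genes. The median fold change of the 102 genes was 0.00.

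Genes of cilium capping and disassembly keep a cilium from growing or take it down before division, and several of them also act in mitosis. AURKA, the kinase that starts disassembly, rose from 23.9, 22.6 and 19.6 CPM in DMSO to 166.6, 165.3 and 164.9 CPM with fenbendazole (2.91 ± 0.135, adjusted p = 0.000484). TPX2, its activator, rose by a log2 fold change of 2.69 ± 0.179, and PLK1, another disassembly kinase, by 2.31 ± 0.196. Also past the threshold were NEK2 (1.91), CENPJ (1.91), KIF24 (1.36) and NDE1 (1.27), named after their values were seen. These calls were lost when fenbendazole 7, 8 or 9 was left out, where 0.763% to 0.793% of all genes were higher. NEK2 and CENPJ also missed the threshold without DMSO 10, CENPJ without DMSO 12, and KIF24 with log2 FPKM. AURKA, TPX2 and PLK1 passed with any 1 library left out. Since several genes of this list act in mitosis, their RNA is no separate measure of cilia. The classical partners HDAC6, the deacetylase of ciliary tubulin (0.08 ± 0.188, adjusted p = 0.833), and NEDD9, the scaffold of AURKA (0.72 ± 0.291, adjusted p = 0.211), did not pass with all 6 libraries, nor did CCP110, which caps the mother centriole (1.12 ± 0.265, adjusted p = 0.0642). Without DMSO 11 NEDD9 (0.93, adjusted p = 0.0253) and CCP110 (0.90, adjusted p = 0.00245) were higher, and CCP110 was also called by DESeq2 (adjusted p = 0.00229) and limma-voom (0.0496).

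**Figure D4:**
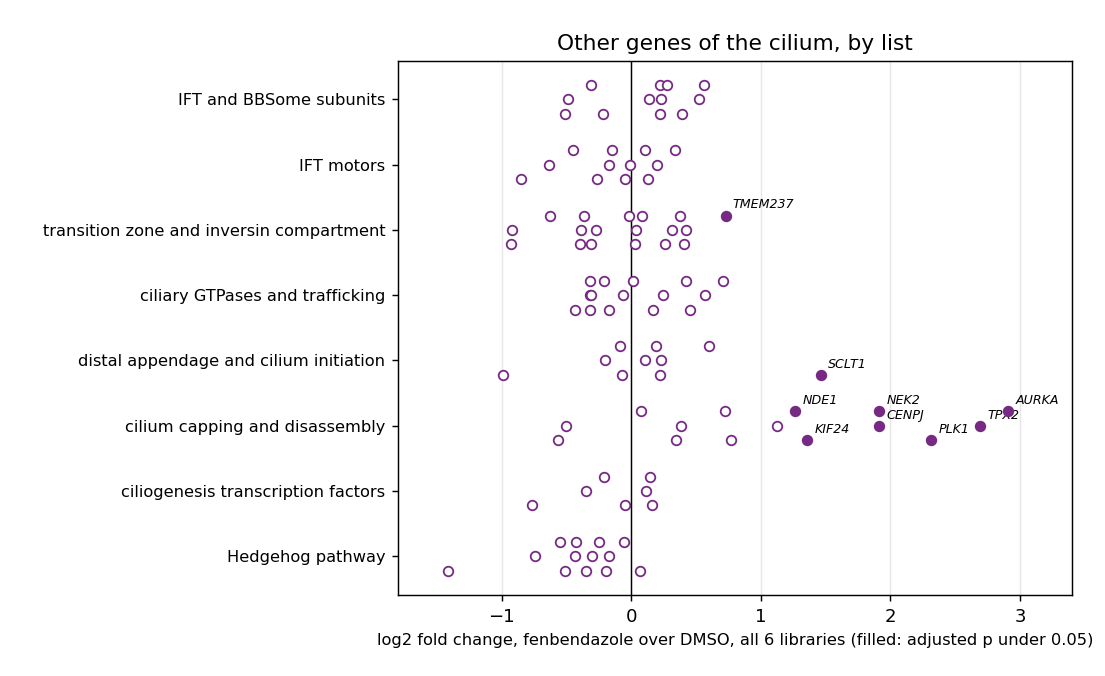
Log2 fold change, fenbendazole over DMSO with all 6 libraries, on the x axis for the 102 tested genes of 8 lists, 1 point per gene. Filled points passed an adjusted p of 0.05: 7 in cilium capping and disassembly, from NDE1 at 1.27 to AURKA at 2.91, with TMEM237 and SCLT1 in 2 other lists.

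Further IFT and BBSome subunits gave 0 calls among 12 genes by edgeR, with 2 higher and 2 lower at an unadjusted p of 0.05, and 1 higher by DESeq2. WDR19, also named IFT144, joins IFT140 in the core of IFT-A, and had 51.2, 37.6 and 52.1 CPM in DMSO and 33.7, 30.3 and 34.8 CPM with fenbendazole. Its groups did not overlap, with a fold change of -0.51 ± 0.174 (adjusted p = 0.154), and -0.64 ± 0.105 without DMSO 11 (adjusted p = 0.0006). The IFT-A genes WDR35 and TTC21B, named after their values were seen, had 0.23 and 0.23, and 0.06 and 0.00 without DMSO 11. MKKS, a BBSome assembly factor, had 0.52 ± 0.135 (adjusted p = 0.0814), and HSPB11, an IFT-B subunit, 0.56 ± 0.215 (adjusted p = 0.195). Both were higher without DMSO 11 (0.46, adjusted p = 0.00228, and 0.37, adjusted p = 0.0227), where the list had 2 higher and 4 lower genes. IFT-A subunits thus did not all lie on the same side of 0.

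Of 12 motor genes 0 passed by edgeR or DESeq2, with 2 lower at an unadjusted p of 0.05, and 4 fold changes were positive and 8 negative. KIF3A, a kinesin-2 subunit, had 0.13 ± 0.254, and DYNC2H1, the heavy chain of dynein-2, -0.26 ± 0.292. DYNC2H1 had 173.8, 87.0 and 207.7 CPM in DMSO and 136.5, 116.7 and 136.7 CPM with fenbendazole, so that DMSO 11 alone lay below the treated libraries. Without that library its fold change was -0.54 ± 0.093 (adjusted p = 0.00136). KIF17 (-0.85), KIFAP3 (-0.45) and DYNLRB1 (0.34) had the smallest unadjusted p in this list, with adjusted p of 0.164, 0.227 and 0.248. KIFAP3, the adaptor of kinesin-2, was lower without DMSO 11 (-0.56, adjusted p = 0.00785), while KIF17 and DYNLRB1 did not pass.

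At the base of the cilium, TMEM237, a transition zone membrane protein, had 44.1, 32.9 and 39.4 CPM in DMSO and 64.0, 60.0 and 68.8 CPM with fenbendazole. It rose by 0.73 ± 0.157 (adjusted p = 0.048), the 1 call among 18 tested genes of the transition zone and inversin compartment. Leaving out DMSO 10 or 12 ended that call (adjusted p = 0.0868 and 0.0871), as did leaving out fenbendazole 7, 8 or 9 (0.213, 0.165 and 0.243), while the fold change stayed at 0.68 to 0.83. SCLT1, a distal appendage protein, had 12.3, 11.01 and 20.4 CPM in DMSO and 39.2, 36.2 and 44.9 CPM with fenbendazole. Its rise of 1.47 ± 0.258 (adjusted p = 0.0235) kept its size, at 1.36 to 1.54, but missed the threshold when DMSO 10 (0.103) or fenbendazole 7, 8 or 9 (0.118, 0.0929 and 0.136) was left out. NEK8 (-0.92, adjusted p = 0.0662), B9D1 (-0.92, adjusted p = 0.12), EHD3 (-0.99, adjusted p = 0.0504), CEP290 (0.41) and CEP83 (0.60) did not pass with all 6 libraries. NEK8, B9D1 and EHD3 were lower without DMSO 11 (-0.79, -0.66 and -0.87, adjusted p = 0.011, 0.0321 and 0.0139) and also by DESeq2 (adjusted p = 0.00339, 0.0284 and 0.00175). Of 15 genes of ciliary GTPases and trafficking 0 passed by edgeR (3 higher and 2 lower at an unadjusted p of 0.05) and 2 were higher by DESeq2. RAB8A, a GTPase of vesicle transport to the cilium, had 0.46 ± 0.132 (adjusted p = 0.107) and CEP19 0.57 ± 0.191 (adjusted p = 0.149). Without DMSO 11 both were higher (0.50, adjusted p = 0.00237, and 0.57, adjusted p = 0.0362), and the list had 3 higher and 2 lower genes.

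Of 7 tested genes on the list of ciliogenesis transcription factors 0 passed by edgeR or DESeq2, and 0 had an unadjusted p under 0.05. Of 13 tested Hedgehog pathway genes 0 passed by edgeR. At an unadjusted p of 0.05, 4 were lower, beside 1829 of all 17363 genes, and 1 was lower by DESeq2, beside 4.66% of genes. RFX3, a factor that binds the X-box, had -0.21 ± 0.254, and -0.42 ± 0.136 without DMSO 11 (adjusted p = 0.0429). RFX1 (-0.76), RFX2 (-0.35) and RFX5 (0.16) did not pass, and RFX1 was at 18.2 CPM in DMSO 11 against 4.98 to 7.08 CPM in the other libraries. RFX5 belongs to the RFX family but is not an established ciliogenesis factor. In the Hedgehog pathway 12 of 13 genes were negative, beside 9546 of all 17363 genes. Without DMSO 11 these counts were 10 of 13 and 8966 of 17689. With GC and length offsets they were 9 of 13 and 9086 of 16975. GLI1 and PTCH1, transcriptional targets of the Hedgehog pathway, had -0.25 ± 0.346 and -0.51 ± 0.314 at means of 2.36 to 4.57 CPM. BOC, a co-receptor of Hedgehog ligands, had -1.42 ± 0.339 (adjusted p = 0.0664), EVC -0.44 and STK36 -0.42. These were the 3 genes of the list that were lower without DMSO 11 (-1.09, -0.37 and -0.32, adjusted p = 0.00958, 0.0311 and 0.0475). In that fit 9.23% of all genes were lower.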

How the data were processed

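Whole-number read counts and FPKM per gene, deposited by the authors for 61552 Ensembl genes with GRCh38 coordinates, were used for 3 DMSO and 3 fenbendazole libraries of SKOV3. The submitters' processing notes name HISAT2 2.1.0, CASAVA 1.8, edgeR and StringTie 1.3.4b. Which program counted, on which annotation and with which strand setting, is not given in the sources used here. TRIzol extraction and an NEB Ultra library kit were used, per the labels' protocols.

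All counts were tested with edgeR 4.0.16 in R 4.3.3 (quasi-likelihood F test, robust, TMM scaling, edgeR's filter on low counts), with Benjamini-Hochberg adjustment over 17363 genes and a threshold of 0.05. Standard errors come from the F statistic, and errors after ± are SE. Alternatives were upper-quartile or median-of-ratios scaling, a filter of 1 CPM or none, DESeq2 1.42.0, limma 3.58.1 (voom, and log2 FPKM plus 1 or 0.1, keeping genes whose mean in either group reached an FPKM of 1), an adjusted p of 0.01, leaving out each library, and offsets for GC content and length (splines with 5 degrees of freedom, longest GENCODE transcript, 97.8% of tested genes). Library quality weights, and GC offsets without DMSO 11, were added after seeing the data. The fit was tested on simulated counts with the same dispersion for all genes and no deviating library. That test therefore does not cover a control such as DMSO 11. Chi-square over its degrees of freedom was 4.86 to 87.2 between replicates, so no pair differed by counting noise alone. This does not show whether the libraries came from separate RNA or cultures.

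The 38 members, the other cilium lists and the markers were chosen with earlier results of these data known. Full values are given for the member of smallest p in each complex and for members past the threshold. IFT43, BBS2, TCTN1 and TMEM67 were added because they passed without DMSO 11, and IFT74 and INPP5E for their values in DMSO 11, after their values were seen. From each other list come the 3 genes of smallest p and 11 genes given whatever their values, of which 1 is not reported here. Promoter windows are RefSeq sequences of GRCh38.p14. Python 3.11.15 with matplotlib 3.10.9 drew the figures.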

Additional observations from a re-analysis of the deposited data

How the results depend on the processing

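Among the 38 members 0 were higher in every setting run, and 0 were called in opposite directions in any pair of settings. The count of lower members, 0 with all 6 libraries, was 6 with DESeq2 (4.66% of genes lower). It was 1 with limma on log2 FPKM plus 1 (1.19%), 1 with plus 0.1 (1.14%) and 10 with GC and length offsets (9.46%). With 1 library left out it was 0 to 8, 8 being without DMSO 11 (9.23%). Settings chosen after seeing the data gave 8 with library quality weights (12.4% of genes lower) and 11 with GC and length offsets without DMSO 11 (11.2%). Of the 8 genes lower without DMSO 11, IFT172, IFT43, IFT140, BBS1, TCTN1 and TCTN3 were also lower with DESeq2. Upper-quartile or median-of-ratios scaling, dropping the filter, the filter of 1 CPM, limma-voom without weights and an adjusted p of 0.01 gave 0. Among the 102 tested other cilium genes, the 9 higher (3.11% of all genes) became 14 with DESeq2 (6.66%) and 4 at an adjusted p of 0.01 (1.11%). There were 14 with GC and length offsets (11.9%), 20 with library quality weights (14%) and 19 with offsets without DMSO 11 (14.3%). With 1 library left out, 3 to 20 were higher. These were 20 without DMSO 11 (13.1%), 5 without DMSO 10 (1.4%) and 3 without fenbendazole 7, 8 or 9 (0.763% to 0.793%). The 0 lower (0.921% of all genes) became 1 with upper-quartile scaling (1.33%), 1 with the filter of 1 CPM (1.38%) and 1 with FPKM plus 1 (1.19%). There were 4 with DESeq2 (4.66%), 15 with GC and length offsets (9.46%), 19 with quality weights (12.4%) and 19 with offsets without DMSO 11 (11.2%). With 1 library left out, 0 to 18 were lower, 18 being without DMSO 11 (9.23%). No paired analysis was possible because no replicate number occurs in both groups. With 3 libraries a group, of which 1 control stands apart, the intervals of 12 members do not exclude a 2-fold change. The cause of these shifts was not tested.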
